A study of Mus musculus with 4 samples.

Results

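Weaker regions with a Mef2Da2 peak only were 3120 of the 19749 regions (15.8%) in a deposited table that combined ChIP-seq signal of both Mef2D splice isoforms. A region was taken when it shared at least 1 bp with a listed Mef2Da2 peak and with no listed Mef2Da1 peak, and when its Mef2Da2 coverage height was below 65. These made up 33.9% of the 9215 regions with a Mef2Da2 peak, and the same rule without the ceiling gave 848 stronger regions. The 4 groups, with 1 library each, were Mef2Da2, Mef2Da2-BLOCK, Mef2Da1 and Mef2Da1-BLOCK, where BLOCK means the same antibody after it had been blocked with peptide. All 4 came from cells of the mouse myoblast line C2C12, which forms myotubes in culture, at day 5 in a medium with 2% horse serum. The antibodies were made against a peptide of each isoform, and the protein was the endogenous one. Heights are averages over a bulk culture, so binding in fewer cells and weaker binding per cell cannot be told apart.

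Mef2D belongs to the MEF2 family of MADS-box transcription factors, which bind A/T-rich elements at many muscle genes and act with the myogenic bHLH factors during differentiation. Its transcript carries alternative exons: Mef2Da1 is made in many tissues, whereas Mef2Da2 appears in muscle as myoblasts differentiate. Both proteins share the DNA-binding part, so regions listed for Mef2Da2 alone raise the question of how much Mef2Da1 signal lies there below the limit of its own list.

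The regions were chosen by Mef2Da2 height and by the presence or absence of listed peaks, and these values are given as descriptions. With 1 library per group there was no replicate spread, and no test was made. Summed over all 19749 regions, height was 955997 for Mef2Da2 and 247315 for Mef2Da2-BLOCK, and 973579 for Mef2Da1 and 377117 for Mef2Da1-BLOCK. The number of reads per library was not known, and heights were not scaled to it. Percentages carry exact (Clopper-Pearson) 95% binomial intervals that cover counting error only and treat regions as independent. Coordinates are of the build mm9 as given in the table. Sequence and genes of mm9 were not analysed here, so regions are named by position and no gene is assigned.

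Mef2Da2 signal in these regions was modest and, as deposited, stood above its blocked control in each region. The median Mef2Da2 height was 46 (quartiles 42 and 52, range 34 to 64), against 10 for Mef2Da2-BLOCK (quartiles 7 and 13, range 0 to 34). Without scaling, and with a pseudocount of 1, the median log2 ratio of Mef2Da2 to Mef2Da2-BLOCK was 2.15 and the smallest was 0.30. The ratio was at least 2-fold in 3049 regions (97.7%, 97.1 to 98.2), where 74.96% of all combined regions reached it. It was at least 4-fold in 1873 (60.0%), where 38.2% of all did. Dividing by each library's summed height left a median log2 ratio of 0.31 and 20.2% of regions at 2-fold, and scaling to the median ratio left 0.61 and 32.4%. Since Mef2Da2 chose the regions, nothing is read from these shares.

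**Figure D1:**
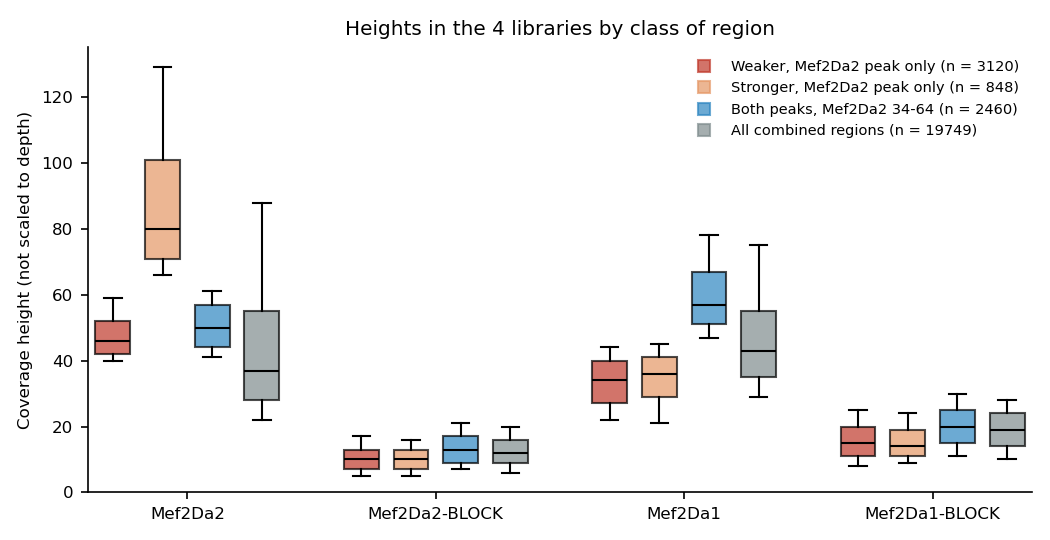
Coverage height (vertical axis, not scaled to depth) of the 4 libraries in 4 sets of regions; boxes show median and quartiles, whiskers the 10th and 90th percentiles. In the weaker Mef2Da2-only regions the median was 46 for Mef2Da2, 10 for Mef2Da2-BLOCK, 34 for Mef2Da1 and 15 for Mef2Da1-BLOCK.

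The strongest of them, by the authors' −log10 p for Mef2Da2, lay close under the ceiling. At chr7:104171498-104172255, with a −log10 p of 12.2, heights were 64 for Mef2Da2 and 4 for Mef2Da2-BLOCK, and 31 for Mef2Da1 and 5 for Mef2Da1-BLOCK. At chr10:118268198-118268584 they were 63 and 7 for Mef2Da2 and its control, and 34 and 17 for Mef2Da1 and its control. In both places Mef2Da1 was above its own control. The next 3 had lower Mef2Da1 signal. At chr5:21004318-21004660 Mef2Da2 had 63 and Mef2Da2-BLOCK 11, while Mef2Da1 had 14 and Mef2Da1-BLOCK 13. At chr10:87207449-87207801 the heights were 62 and 3 for Mef2Da2 and its control, and 14 and 9 for Mef2Da1 and its control. At chr16:85992648-85993054 they were 62 and 3, and 22 and 5. Regions of nearly equal Mef2Da2 strength thus held Mef2Da1 heights between 14 and 34.

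Mef2Da1, which had no listed peak in these regions, had a median height of 34 (quartiles 27 and 40, range 8 to 97), against 15 for Mef2Da1-BLOCK (quartiles 11 and 20, range 1 to 48). Unscaled, the median log2 ratio of Mef2Da1 to Mef2Da1-BLOCK was 1.04. The ratio was at least 2-fold in 1683 regions (53.9%, 52.2 to 55.7), where 64.7% of all combined regions reached it. In the stronger Mef2Da2-only regions 62.3% did, and in regions with no listed peak 46.8%. Mef2Da1 was not above its control in 70 regions (2.24%), against 143 of all 19749 (0.724%). No region with a listed Mef2Da1 peak was among the 143. The share was 1.53% in the stronger Mef2Da2-only regions and 0.797% in regions with no listed peak. The comparison of Mef2Da1 with its control in the 3120 regions turned with scaling. The median was −0.28 when libraries were scaled to total height and −0.11 when scaled to the median ratio. Of the regions, 2.69% and 4.62% were then at 2-fold. Either scaling sets the libraries equal over a table of regions with isoform signal.

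By the authors' −log10 p, Mef2Da1 reached 3 in 2361 of the 3120 regions (75.7%, 74.1 to 77.2), where 92.1% of all combined regions did. It did so in 78.9% of the stronger Mef2Da2-only regions, 91.8% of regions with no listed peak and every region with a listed Mef2Da1 peak. No combined region had a summed −log10 p of both isoforms below 6.06. The median for Mef2Da2 was 4.13 in regions with no listed peak and 7.39 in the 3120 regions. Regions low in Mef2Da2 were thus in the table only with more Mef2Da1. The part of this in the shares was not tested. A score of 3 was reached by Mef2Da1-BLOCK in 309 (9.90%), where 16.5% of all did. The median was 4.07 for Mef2Da1 and 1.50 for its control. Most regions lay in the middle of the range: 736 had a Mef2Da1 −log10 p from 3 to below 4, 811 from 4 to below 5 and 643 from 5 to below 6. A value of 2 or more was found in 92.8% of the 3120 and 98.3% of all combined regions, and of 1 or more in 99.3% and 99.8%. Below 2 there were 224 regions, of which 22 were below 1. Median Mef2Da2 height was 45 to 51 over these classes. Median width was 361 bp for a −log10 p of 1 to below 2 and 554 bp for 5 to below 6. Median Mef2Da1 height was 18 and 42 in the same classes.

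**Figure D2:**
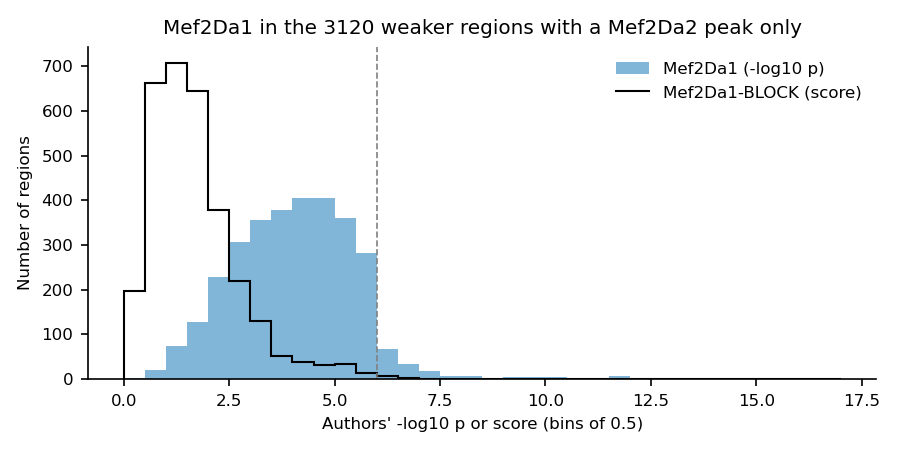
Number of weaker Mef2Da2-only regions (vertical axis) by the authors' −log10 p for Mef2Da1 (filled) and score for Mef2Da1-BLOCK (outline; values below 0 are drawn in the first bin), in bins of 0.5; the dashed line is at 6. Mef2Da1 has its median at 4.07 and Mef2Da1-BLOCK at 1.50, and 171 regions lie at or beyond 6 for Mef2Da1.

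The lowest −log10 p of a listed peak was 6.01 for both isoforms, but the lowest listed heights differed. The lowest height of a listed peak was 34 for Mef2Da2 and 42 for Mef2Da1. Of the weaker Mef2Da2-only regions, 735 (23.6%) had a Mef2Da2 height below 42, a level at which the Mef2Da1 list held no peak, against 58.8% of all combined regions. The share over all includes regions with no listed Mef2Da2 peak. It was 14.2% in regions with both peaks and a Mef2Da2 height of 34 to 64. In the other direction, 597 (19.1%) had a Mef2Da1 height of 42 or more without a listed Mef2Da1 peak, where 54.4% of all combined regions reached that height. Every region with a listed Mef2Da1 peak reached it, since 42 was the lowest height in that list. Without one, 24.4% of the stronger Mef2Da2-only regions and 22.3% of regions with no listed peak did.

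Without a listed peak, 171 regions (5.48%) still had a Mef2Da1 −log10 p of 6 or more, where 40.5% of all combined regions did. The share over all includes regions with a listed Mef2Da1 peak, which the rule barred here. Among other regions without one, it was 9.20% in the stronger Mef2Da2-only regions and 3.08% in regions with no listed peak. Mef2Da1 was higher than Mef2Da2 in 109 of these 171. They divided by the blocked control. In 91 the Mef2Da1-BLOCK score was below 3, Mef2Da1 heights were 42 to 52 and the highest −log10 p was 7.39, close to the limit of the list. In 48 the score was 5 or more, with a median height of 68 (range 46 to 97) for Mef2Da1 and 40 (range 35 to 48) for Mef2Da1-BLOCK. The other 32 had a score between these levels.

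At a score of 5 or more, but not at lower levels, signal of the blocked Mef2Da1 antibody went with the lack of a listed Mef2Da1 peak. A score of 3 or more was reached in 20.4% of regions with both peaks and 26.4% with a Mef2Da1 peak only. That share was lower without a listed Mef2Da1 peak: 9.90% in the weaker and 9.55% in the stronger Mef2Da2-only regions, and 13.3% with no listed peak. A Mef2Da1-BLOCK score of 5 or more was found in 58 of the 3120 regions (1.86%) and in 25 of the 848 stronger Mef2Da2-only regions (2.95%), where 0.967% of all combined regions had one. It was found in 8 of 5247 regions with peaks of both isoforms. Over the whole table, 138 regions had both such a score and a Mef2Da1 −log10 p of 6 or more, and 11 of them had a listed Mef2Da1 peak. Where the score was below 5, 7511 of 7865 regions with that −log10 p had one (95.5%). The part of the blocked control in the missing listings was not tested. Without the 58 regions the median log2 ratio of Mef2Da2 to Mef2Da2-BLOCK was 2.17 and that of Mef2Da1 to Mef2Da1-BLOCK 1.04.

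The 5 regions with the highest Mef2Da1 signal belonged to this set. At chr15:27958223-27958700 heights were 64 for Mef2Da2 and 9 for Mef2Da2-BLOCK, and 97 for Mef2Da1 and 36 for Mef2Da1-BLOCK. At chr15:75910572-75911543 they were 42 and 24, and again 97 and 40 for Mef2Da1 and its control. The control stood above the 90th percentile of Mef2Da1-BLOCK height in these regions at both places. At chr6:145321805-145322876 Mef2Da2 had 60 and its control 15, and Mef2Da1 had 96 and its control 46, with a Mef2Da1 −log10 p of 16.2 against a control score of 6.38. At chr1:78534044-78534623 the heights were 57 and 14, and 93 and 40. At chr10:70755054-70755524 they were 44 and 9, and 85 and 43. In all 5 Mef2Da1 was higher than Mef2Da2. They were picked by Mef2Da1 height, which was 85 to 97 and so above the ceiling that the rule set on Mef2Da2 height. This order therefore follows from the choice, and nothing is read from it.

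At the other end lay the 5 regions with the lowest Mef2Da1 height. Their unscaled log2 ratio of Mef2Da1 to Mef2Da1-BLOCK was −1.07 to 1. At chr5:130397450-130397746 Mef2Da2 had a height of 58 and Mef2Da2-BLOCK 10, while Mef2Da1 had 8 and Mef2Da1-BLOCK 5. At chr10:115772430-115772727 the heights were 60 and 12 for Mef2Da2 and its control, and 9 and 4 for Mef2Da1 and its control. At chr15:99668088-99668398 they were 49 and 8, and 9 and 20, so that Mef2Da1 was below its blocked control. At chr11:109771138-109771474 they were 62 and 9, and 10 and 10. At chr9:118634309-118634594 they were 53 and 1, and 10 and 12. These 5 had the largest ratios of Mef2Da2 to Mef2Da1, with log2 values of 2.32 to 2.74 scaled to total. Large ratios follow in large part from their choice by low Mef2Da1 height. They were 285 to 336 bp wide, narrower than the median region of 482 bp. Across the 3120 regions, Mef2Da1 height was correlated with width (Spearman 0.40).

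The regions with the highest Mef2Da2-BLOCK signal had little excess of Mef2Da2. At chr15:77764156-77764626 the heights were 42 for Mef2Da2 and 34 for Mef2Da2-BLOCK, and 40 for Mef2Da1 and 24 for Mef2Da1-BLOCK. At chr5:124456757-124457601 they were 49 and 31, and 77 and 38. The other 3, at chr16:4497805-4498641, chr17:25252583-25253297 and chr8:73196876-73197823, had Mef2Da2 heights of 45, 41 and 51 and a Mef2Da2-BLOCK height of 30 each. The unscaled log2 ratio of Mef2Da2 to its control was 0.30 to 0.75 in these 5. They were picked by the height of the control, and the rule kept Mef2Da2 height below 65. Low ratios therefore follow in large part from the choice. In all 3120 regions, 73 (2.34%) had a Mef2Da2-BLOCK score of 3 or more, where 3.68% of all combined regions did.

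The isoforms were also set directly against each other. Scaled to total height, 2653 (85.03%, 83.7 to 86.3) were within 2-fold, where 83.4% of all combined regions were. Mef2Da2 was at least 2-fold above Mef2Da1 in 466 (14.9%), where 7.03% of all were. Mef2Da1 was at least 2-fold above Mef2Da2 in 1 region, where 9.62% of all were. The median log2 ratio of Mef2Da2 to Mef2Da1 was 0.49. In heights as deposited, Mef2Da2 was above Mef2Da1 in 2772 regions, equal in 62 and below in 286 (88.8%, 1.99% and 9.17%), against 37.8%, 1.88% and 60.3% of all combined regions. With each isoform scaled by its blocked control's total, 44.9% were within 2-fold and the median was 1.05. The rule used this contrast, so nothing is read from these shares.

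The rule limits the range of both isoforms' heights, so the following values are a description. In regions with a Mef2Da2 height of 34 to 39 the median Mef2Da1 height was 33 (n = 309), and at 60 to 64 it was 35 (n = 254), with 33 to 35 in the 4 classes between. In regions with listed peaks of both isoforms and the same Mef2Da2 heights, the median was 51.5 at 34 to 39 (n = 126) and 63 at 60 to 64 (n = 371). A listed Mef2Da1 peak was required there and barred here, which by itself raises Mef2Da1 heights there and limits them here. Mef2Da1 stood at a median of 36 in the 848 stronger Mef2Da2-only regions, where the median Mef2Da2 height was 80. Across the 3120 regions, Spearman correlation of Mef2Da2 and Mef2Da1 height was 0.01, over points that share both libraries and a narrow range of Mef2Da2 height.

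**Figure D3:**
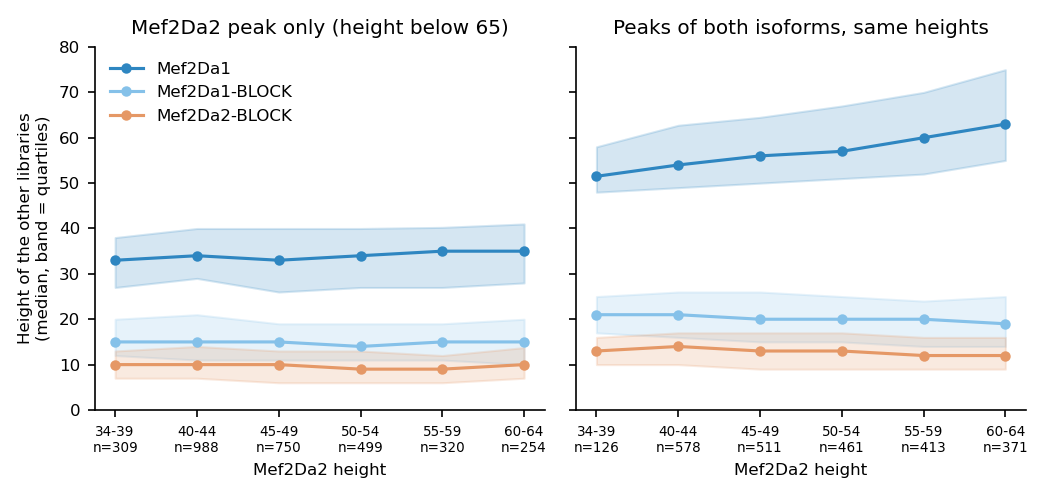
Median height (vertical axis, bands show quartiles) of Mef2Da1, Mef2Da1-BLOCK and Mef2Da2-BLOCK by class of Mef2Da2 height (horizontal axis, n below each class), for weaker Mef2Da2-only regions (left) and regions with peaks of both isoforms (right). Mef2Da1 stays at 33 to 35 on the left and goes from 51.5 to 63 on the right, and both blocked controls are lower on the left in each class.

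The blocked controls, which the rule did not name, were lower in these regions than in regions of like Mef2Da2 height with both peaks. Median Mef2Da2-BLOCK height was 10 in the 3120 regions and 13 in the 2460 regions with both peaks and a Mef2Da2 height of 34 to 64. Median Mef2Da1-BLOCK height was 15 and 20 in the same sets. The stronger Mef2Da2-only regions had medians of 10 and 14, and all combined regions 12 and 19. The controls were correlated with each other across the 3120 regions (Spearman 0.51), and Mef2Da1-BLOCK with Mef2Da1 (0.37). Mef2Da2-BLOCK and Mef2Da2 height had a value of −0.06, again within a narrow range of Mef2Da2 height. Whether the choice by listed peaks lowers the controls was not tested.

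Median width of the weaker Mef2Da2-only regions was 482 bp (quartiles 390 and 643), against 492 bp in regions with no listed peak (quartiles 386 and 662), 638 bp in regions with both peaks at the same Mef2Da2 heights, 509 bp in the stronger Mef2Da2-only regions and 556 bp in all. A single Mef2Da2 peak lay in 3108 of the 3120 regions, and 12 held 2 peaks. The single peaks were 259 to 337 bp wide between quartiles, with a median of 295 bp. They filled a median of 63.3% of their region and were centred within a median of 30 bp of its middle. Peaks in regions with both isoforms at the same heights had a median width of 329 bp. Wider regions had higher blocked controls, with Spearman correlations of 0.42 for each control. The part of width in the control heights was not tested.

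The ceiling of 65 cut through a continuous range of heights. At a Mef2Da2 height of 64 there were 48 regions, with median heights of 37 for Mef2Da1, 16 for Mef2Da1-BLOCK and 10 for Mef2Da2-BLOCK. At 65, just outside, there were 38, with medians of 32, 16 and 9. Just inside, chr11:32270181-32270808 had heights of 64 for Mef2Da2 and 9 for Mef2Da2-BLOCK, and 23 for Mef2Da1 and 14 for Mef2Da1-BLOCK. Just outside, chr15:33520448-33520791 had 65 and 2, and 21 and 14. At chr13:100154767-100155262 the heights were 65 and 10, and 34 and 18. Regions on the 2 sides of the ceiling had overlapping Mef2Da1 heights, 15 to 97 inside and 10 to 46 outside.

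Position was not used by the rule. The regions were found on all 19 autosomes and made up 12.5% of combined regions on chromosome 11 (184 of 1472, 10.9 to 14.3) and 21.2% on chromosome 18 (142 of 671, 18.1 to 24.5). Chromosomes 16 and 7 followed with 19.6% and 19.3%. Counted among regions with a Mef2Da2 peak, the share was 30.9% on chromosome 11 (27.2 to 34.8) and 39.4% on chromosome 18 (34.4 to 44.7), against 33.9% overall. Chromosome 15 held 227 of the 3120 (7.28%), and they made up 15.6% of its combined regions, close to the 15.8% of the whole table. Median Mef2Da1 height within the group was 32 to 36 on every chromosome. Differences between chromosomes were not tested.

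**Figure D4:**
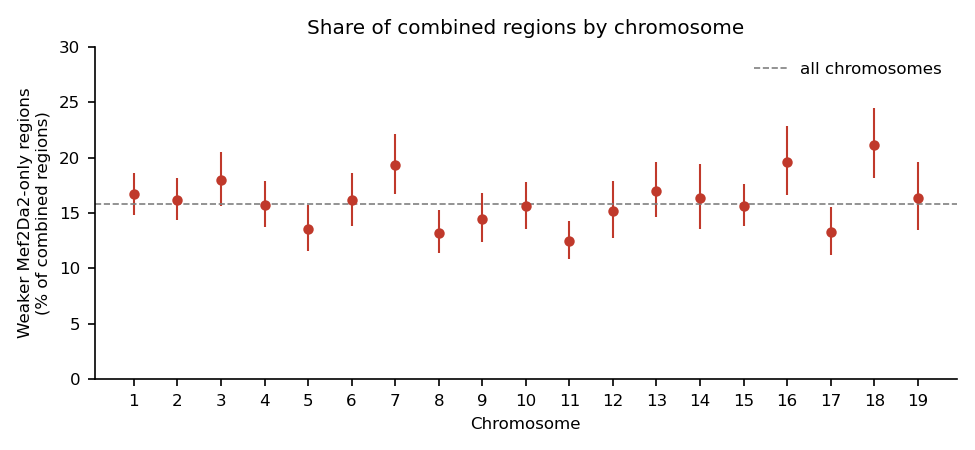
Weaker Mef2Da2-only regions as a percentage of the combined regions on each chromosome (points, with exact 95% binomial intervals); the dashed line marks 15.8% for all chromosomes. Chromosome 11 is lowest at 12.5% and chromosome 18 highest at 21.2%.

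Another combined region of any kind lay within 10 kb of 1280 of these regions (41.03%), against 47.7% of all combined regions. The median gap to the nearest one was 14.8 kb, and 358 regions (11.5%) had none within 100 kb, against 8.80% of all. A region with peaks of both isoforms lay within 10 kb of 569 (18.2%, 16.9 to 19.6), against 21.1% of all combined regions. That share was 17.5% for the stronger Mef2Da2-only regions, 19.0% for regions with a Mef2Da1 peak only, 19.8% for regions with no listed peak and 26.7% for regions with both peaks themselves. A listed Mef2Da1 peak began or ended within 1 kb of 146 (4.68%). That share was 3.77% for the stronger Mef2Da2-only regions and 6.75% for regions with no listed peak.

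**Figure D5:**
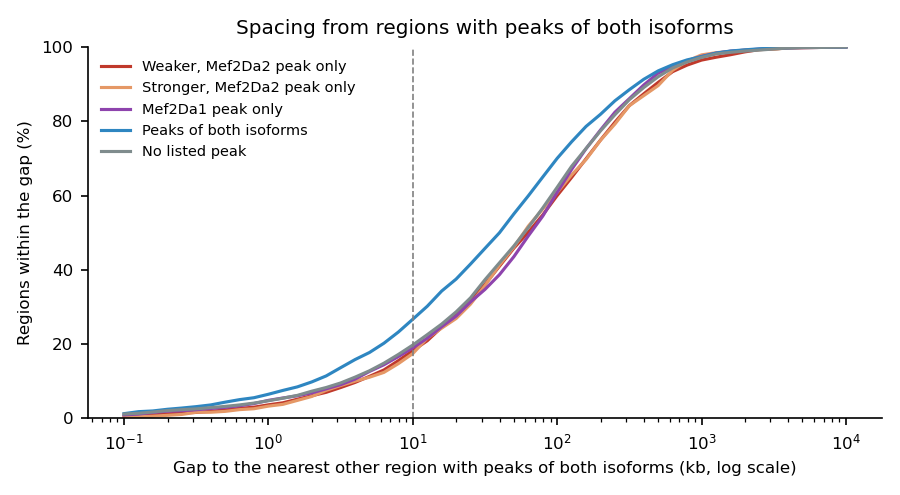
Percentage of regions (vertical axis) whose gap to the nearest other region with peaks of both isoforms is at most the distance on the horizontal axis (kb, log scale), for 5 classes of regions; the dashed line is at 10 kb. At 10 kb the weaker Mef2Da2-only regions are at 18.2% and regions with both peaks at 26.7%.

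Another weaker Mef2Da2-only region lay within 10 kb of 292 of them (9.36%), and such a region lay within 10 kb of 10.07% of all combined regions. Joined at gaps of up to 10 kb, 2828 stood alone, 132 pairs and 8 groups of 3 were formed, and 1 group held 4. The group of 4 covered 9.50 kb, chr12:33674630-33684133, with no other combined region inside. Its Mef2Da2 heights were 58, 41, 55 and 39, against 8, 13, 10 and 9 for Mef2Da2-BLOCK. Mef2Da1 heights were 31, 33, 25 and 28, against 11, 11, 25 and 9 for Mef2Da1-BLOCK. Mef2Da2 was above its control at all 4 places, as in each of the 3120 regions, and Mef2Da1 at 3 of them. Over the 3120 regions Mef2Da1 was not above its control in 2.24%. A group of 3 on chromosome 15, chr15:27951405-27961385, contained the region with the highest Mef2Da1 signal named above.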

How the data were processed

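ChIP-seq of 4 C2C12 libraries was analysed from the peak lists of Mef2Da2 and Mef2Da1 and from 1 table of combined regions with values for each library. Reads were aligned with BWA 0.5.9 to mm9, per the submitters' processing notes; for the peak caller and the choice of combined regions, the method was not given in the sources used here. The authors deposited coverage heights as whole numbers (signal, not read counts) and a −log10 p per peak or region. For blocked libraries the deposited −log10 p column was treated as a score, since some values lie below 0. Columns of the table use the names of the samples' peak lists (not their titles) and were assigned on that basis.

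Regions were classed by listed peaks sharing at least 1 bp, with 65 as the ceiling on Mef2Da2 height. Log2 ratios used a pseudocount of 1, unscaled against blocked controls and scaled to total height between isoforms. Medians and exact binomial intervals were computed with Python 3.11.15, pandas 2.3.3, NumPy 2.4.6 and SciPy 1.17.1, and figures with Matplotlib 3.10.9. Overlap and distance code was tested on simulated regions. Regions were named by fixed rules: the 5 at either end of Mef2Da1 height, the 5 highest in Mef2Da2 −log10 p, in Mef2Da2-BLOCK height and in the ratio of isoforms, up to 3 on each side of the ceiling, and the largest run. The members and rules were chosen with earlier results of these data known. The division of unlisted Mef2Da1 signal by the blocked score was chosen after its values were seen. Each group had 1 library, of unknown depth.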

Additional observations from a re-analysis of the deposited data

How the results depend on the processing

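Of 74 recomputed values, 37 stayed within the interval of the reported value (or within 1.5 times the count), 35 moved and 2 turned in sign. Counting a peak only where at least 50% of it lay in the region changed nothing. With a ceiling of 55 or 75, 88.9% or 81.9% of regions had the isoforms within 2-fold, the median log2 Mef2Da2 to Mef2Da2-BLOCK ratio was 2.06 or 2.22, and that of Mef2Da2 to Mef2Da1 was 0.42 or 0.53. With only listed peaks of −log10 p 7 or more kept for both isoforms, 2442 regions met the rule. A region whose listed Mef2Da1 peaks all lay below 7 then no longer counted as having one. The next values mix this with the stricter limit for Mef2Da2 peaks. The 2-fold shares over control were then 99.1% (Mef2Da2) and 59.01% (Mef2Da1), with medians of 2.27 and 1.11; the isoforms were within 2-fold in 82.4%, Mef2Da1 reached a −log10 p of 3 in 78.9%, 15.9% lay near a region with both peaks and 6.27% lay on chromosome 15. With a pseudocount of 5 the 2-fold shares were 96.0% and 41.8%, the medians 1.81 and 0.87, and between isoforms 88.4% and 0.45. Scaled to total, the 2-fold shares were 20.2% and 2.69% and the medians 0.31 and −0.28; scaled to the median ratio, 32.4%, 4.62%, 0.61 and −0.11. Mef2Da1 thus lay below its control by the median under both scalings, which lower each ratio by construction. Between isoforms, the median was 0.46 unscaled, 0.65 with 76.2% within 2-fold at the median ratio, and 1.05 with 44.9% by blocked totals. Mef2Da1 reached a −log10 p of 2 in 92.8% and of 4 in 52.1%, and 11.3% and 28.1% of regions lay within 5 and 20 kb of a region with both peaks. Leaving out regions with a Mef2Da1-BLOCK score of 5 or more, chosen after seeing the data, moved no value beyond its interval. No paired analysis was possible because each group had 1 library. Unknown depth limits every comparison of heights between libraries.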

Other observations

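The combined table and the Mef2Da2 list did not always give the same −log10 p to a place. In 187 of the 3120 weaker Mef2Da2-only regions (5.99%) the table's value for Mef2Da2 was below 6, with a lowest value of 5.10, although the lowest in the list was 6.01. Heights were equal in all 3120.

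The sum of the −log10 p of both isoforms was at least 7.19 in these regions, against 6.06 over all combined regions.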
